A study of Homo sapiens with 22 samples.

Results

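The TTP family (ZFP36, ZFP36L1 and ZFP36L2) and the antiproliferative BTG/TOB family (BTG1, BTG2, BTG3, TOB1 and TOB2) encode proteins that shorten the lives of other mRNAs. They were followed here as mRNAs in their own right, in cells with and without a knockdown of ZNF598. The 8 genes were found by their symbols in GENCODE release 44. Each was represented by its protein-coding transcript with the highest mean count over the chase, 1 row of the 27 that these genes have among 227264 transcripts in all. Levels in the text are counts per 1000000 (CPM) after TMM scaling, and 6 of the 8 genes passed the minimum of 1 CPM on average that 79513 transcripts passed. ZFP36 and ZFP36L2 did not pass, and their tests come from a fit with no minimum.

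The data were BRIC-Seq libraries, in which RNA made during 24 h in 150 µM bromouridine (BrU) was recovered with an antibody after the cells had been moved to medium without BrU. The cells were HEK293T, a human embryonic kidney line that carries the SV40 large T antigen, and all of them expressed a short hairpin RNA, either a control (shControl) or one against ZNF598 (shZNF598). ZNF598 is a ubiquitin ligase that recognises collided ribosomes. Each shRNA had 2 libraries at 0, 2, 4, 6 and 10 h of chase and 1 library at 24 h, 22 in all, and whether the shRNA lines were clones is not given in the sources used here. The labels do not say that replicate libraries came from separate cultures, so p-values measure the spread between libraries, which may be technical. Those of straight-line slopes over the chase also hold the misfit of the line. The 24 h values have no replicate and no test. In bulk libraries such as these, fewer cells with a transcript and less of it per cell cannot be told apart.

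TTP family proteins bind AU-rich elements in 3′ untranslated regions through a tandem CCCH zinc finger, and they recruit the CCR4-NOT deadenylase, which removes the poly(A) tail. BTG and TOB proteins bind the CAF1 subunits of the same deadenylase through their conserved N-terminal domain, and TOB1 and TOB2 also carry motifs for the cytoplasmic poly(A)-binding protein. Many of these genes are immediate-early or stress-response genes with short-lived mRNAs, BTG2 being a well-known target of p53. TTP is known to act on AU-rich elements in its own mRNA.

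Total counts were 52352359 to 96963584 in the 20 libraries of 0-10 h and 21220829 and 40157613 at 24 h. The targeted gene was lower in every shZNF598 group, with a log2 change of -3.05 averaged over 0-10 h (SE 0.09, edgeR quasi-likelihood test, adjusted p = 1.17e-18). The gap between the arms was 14.2-fold at 4 h but 4.93-fold at 10 h, the change from 4 to 10 h differed by 1.52 on the log2 scale (SE 0.30, edgeR, adjusted p = 0.0453), and at 24 h, with no test, ZNF598 had 2.5 CPM in the shZNF598 and 5.08 CPM in the shControl library. The 2 shControl libraries of 0 h were the least alike, with a Pearson r of 0.9781 across transcripts, and every other pair reached at least 0.9902. At 0 h the embryonic kidney factor SALL1 had 4.32 to 6.58 CPM, PAX2 stayed at 0.0711 CPM or below, the blood and liver markers PTPRC and ALB were at or near 0, and the fibroblast collagen COL1A1 had 0.575 to 1.08 CPM.

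The TTP family mRNAs were the scarcest of the 8 per unit of length. At 0 h in shControl cells the level per kilobase was 0.191 ± 0.029 CPM per kb for ZFP36 (SD, n = 2), 0.556 ± 0.2 for ZFP36L2 and 1.22 ± 0.45 for ZFP36L1. BTG1 had 1.46 ± 0.15, TOB1 2.1 ± 0.69, TOB2 2.36 ± 0.071, BTG2 2.76 ± 0.23 and BTG3 3.1 ± 0.085 CPM per kb. The libraries of ZFP36L1 and BTG1 overlapped, as did those of TOB1 and TOB2, and the other neighbours in this order did not. In shZNF598 cells BTG2 ranked behind TOB2 and overlapped with TOB1, at 1.84 ± 0.18 and 1.75 ± 0.11 CPM per kb, while TOB2 had 2.49 ± 0.11.

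The 3′ untranslated regions separated the families by 1 element. The nonamer TTATTTATT, the fuller form of the AU-rich element, was present once in each of the 3 TTP family transcripts and in none of the 5 BTG/TOB transcripts, beside 10.0% of 8835 3′ untranslated regions of tested genes (1 transcript per gene, sense strand only). These windows are shown because they hold that element, in capitals, on the strand of the gene (GRCh38, GENCODE release 44):
ZFP36, chr19:39409198-39409222, plus strand: tgacgactTTATTTATTctaatatg
ZFP36L1, chr14:68788079-68788103, minus strand: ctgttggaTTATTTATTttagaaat
ZFP36L2, chr2:43223450-43223474, minus strand: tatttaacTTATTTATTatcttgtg
The core ATTTA, which lies within the nonamer, was present in all 8, from 2 copies in BTG2 to 8 in ZFP36L1, and in 75.5% of all these regions.
These matches are letters in an annotated transcript and not measured binding sites. The 8835 genes are those with a protein-coding transcript of the same version in the counts and in release 44. ZFP36L1 and BTG3, with later versions in release 44, and ZFP36 and ZFP36L2, below the minimum, are not among them. The regions of ZFP36L1 and BTG3 were read from the later versions. The change by 2 h in shControl cells was compared across the 8835 genes whose 3′ untranslated region was counted. Its median was -0.0324 on the log2 scale with ATTTA and -0.111 without it. For the nonamer it was -0.0256 with and -0.0584 without. These medians were not adjusted for the length of the region, and no test was run on them.

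Of the 6 genes above the minimum, BTG2 fell furthest by 2 h. BTG2 (ENST00000290551.5, chromosome 1, 203305519 to 203309602, plus strand) had 7.11 and 7.97 CPM in the shControl libraries at 0 h, 1.22 and 1.53 at 2 h, 0.775 and 0.709 at 4 h, 1.4 and 1.41 at 6 h, 3.28 and 2.82 at 10 h, and 6.44 at 24 h. In shZNF598 cells its level was 5.39 and 4.7 CPM at 0 h, 1.07 and 0.981 at 2 h, 0.409 and 0.489 at 4 h, 0.763 and 0.917 at 6 h, 2.16 and 2.72 at 10 h, and 6.2 at 24 h. The curve was a V in both arms, with its lowest point at 4 h, at 9.84% of the 0 h level in shControl cells and 8.9% in shZNF598 cells, and the 0 h and 2 h libraries were far apart. By 2 h BTG2 fell by 2.45 on the log2 scale in shControl cells (SE 0.16, edgeR, adjusted p = 2.47e-10) and by 2.30 in shZNF598 cells (SE 0.17, edgeR, adjusted p = 3.74e-09). Only 0.0151% and 0.0252% of the tested transcripts had a lower value in the respective arms.

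TOB1 and TOB2, the larger antiproliferative proteins, followed the same course. The TOB1 mRNA (ENST00000499247.3, chromosome 17, 50862223 to 50866354, minus strand) had 5.77 and 3.61 CPM at 0 h in shControl cells, 1.35 and 1.25 at 2 h, 0.683 and 0.64 at 4 h, 1.07 and 0.917 at 6 h, 1.91 and 1.78 at 10 h and 2.72 at 24 h. Its shZNF598 libraries had 4.09 and 3.74 CPM at 0 h, 0.97 and 1.02 at 2 h, 0.692 and 0.584 at 4 h, 0.654 and 0.872 at 6 h, 1.68 and 1.55 at 10 h and 2.29 at 24 h. The 2 shControl libraries of 0 h differed more for TOB1 than those of any later time, although both lay above all later libraries. TOB2 (ENST00000327492.4, chromosome 22, 41433494 to 41446801, minus strand) started at 10.5 and 10 CPM in shControl cells, passed through 2.77 and 3.22 at 2 h, 1.71 and 1.13 at 4 h and 2.39 and 1.87 at 6 h, and stood at 4.12 and 3.24 at 10 h and 5.67 at 24 h. Its values in shZNF598 cells were 11.1 and 10.5 CPM at 0 h, 3.69 and 3.73 at 2 h, 1.65 and 1.52 at 4 h, 2.23 and 2.45 at 6 h, 4.88 and 5.59 at 10 h and 7.18 at 24 h. For both genes the lowest mean was at 4 h in both arms, between 13.9% and 16.3% of the 0 h mean.

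By 2 h TOB1 fell by 1.85 on the log2 scale in shControl cells (SE 0.19, edgeR, adjusted p = 3.24e-07) and by 1.97 in shZNF598 cells (SE 0.20, edgeR, adjusted p = 3.32e-07). TOB2 fell by 1.77 (SE 0.15, edgeR, adjusted p = 2.72e-08) and fell by 1.54 (SE 0.15, edgeR, adjusted p = 2.39e-07). At most 0.211% of the tested transcripts had a lower value than either gene in either arm.

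The mRNAs of BTG1 and BTG3, the other small BTG proteins, fell more slowly. BTG1 (ENST00000256015.5, chromosome 12, 92140278 to 92145846, minus strand) had 7.22 and 6.23 CPM at 0 h in shControl cells, 3.43 and 4.3 at 2 h, 2.05 and 1.74 at 4 h, 2.41 and 1.63 at 6 h, 3.1 and 2.8 at 10 h and 4.55 at 24 h. In the shZNF598 arm BTG1 had 6.88 and 6.59 CPM at 0 h, 4.29 and 3.94 at 2 h, 2.2 and 1.81 at 4 h, 1.88 and 1.79 at 6 h, 3.08 and 3.54 at 10 h and 6.17 at 24 h. The arms overlapped at each time of 0-10 h, and the lowest mean was still 28.2% and 27.3% of the level at 0 h. BTG3 (ENST00000348354.6, chromosome 21, 17593653 to 17612901, minus strand) had 4.59 and 4.42 CPM at 0 h in shControl cells, 2.78 and 2.97 at 2 h, 1.25 and 1.57 at 4 h, 0.734 and 0.958 at 6 h, 1.27 and 0.932 at 10 h and 3.01 at 24 h. With shZNF598 it had 4.32 and 3.82 CPM at 0 h, 1.91 and 2.17 at 2 h, 0.828 and 0.802 at 4 h, 0.482 and 0.828 at 6 h, 0.821 and 1.1 at 10 h and 2.06 at 24 h. BTG3 was the latest of the BTG/TOB genes to reach its lowest mean in shControl cells, at 6 h. Its coordinates and those of ZFP36L1 are from release 44, in which both transcripts have a later version than in the counts.

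The fall by 2 h was smaller for this pair. BTG1 fell by 0.80 on the log2 scale in shControl cells (SE 0.15, edgeR, adjusted p = 0.00178) and by 0.71 in shZNF598 cells (SE 0.15, edgeR, adjusted p = 0.00553). BTG3 fell by 0.65 (SE 0.17, edgeR, adjusted p = 0.0266) and by 0.996 (SE 0.18, edgeR, adjusted p = 0.000852). These were the calls that depended on single libraries. In shControl cells BTG3 lost its call without either library of 2 h (adjusted p = 0.269 without replicate 1 and 0.139 without replicate 2, edgeR) and BTG1 lost its call without replicate 1 of 2 h (adjusted p = 0.116, edgeR). In shZNF598 cells BTG1 lost its call without replicate 1 of 0 h (adjusted p = 0.074, edgeR) or replicate 2 of 2 h (adjusted p = 0.105, edgeR).

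In the TTP family ZFP36L1, the most abundant of the 3, could be tested with the rest. ZFP36L1 (ENST00000439696.2, chromosome 14, 68787662 to 68793067, minus strand) had 4.92 and 2.86 CPM at 0 h in shControl cells, 1.46 and 1.32 at 2 h, 0.67 and 0.586 at 4 h, 0.748 and 0.55 at 6 h, 1.37 and 1.05 at 10 h and 1.06 at 24 h. In shZNF598 cells it had 2.87 and 2.9 CPM at 0 h, 1.3 and 1.1 at 2 h, 0.597 and 0.666 at 4 h, 0.498 and 0.582 at 6 h, 1.13 and 0.948 at 10 h and 1.94 at 24 h. All 0 h libraries lay above all later ones. The change by 2 h was -1.48 on the log2 scale in shControl cells (SE 0.20, edgeR, adjusted p = 2.74e-05) and -1.27 in shZNF598 cells (SE 0.21, edgeR, adjusted p = 0.000398).

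ZFP36, which encodes TTP itself, was near the limit of detection. ZFP36 (ENST00000594442.2, chromosome 19, 39406847 to 39409412, plus strand; its mean of 7.45 counts was shared by a second coding transcript) had 26 and 22 counts at 0 h in shControl cells, 2 and 7 at 2 h, 3 and 8 at 4 h, 2 and 2 at 6 h, 4 and 2 at 10 h and 0 at 24 h, which allows up to 3 counts by counting error alone. The shZNF598 libraries held 21 and 18 counts at 0 h, 5 and 5 at 2 h, 3 and 5 at 4 h, 3 and 6 at 6 h, 3 and 2 at 10 h and 3 at 24 h. No later library reached the counts of 0 h, and the values after 2 h were too few to show a course. In the fit with no minimum, over 183249 transcripts, ZFP36 fell by 2.50 on the log2 scale by 2 h in shControl cells (SE 0.58, edgeR, adjusted p = 0.00153) and by 2.19 in shZNF598 cells (SE 0.59, edgeR, adjusted p = 0.00837).

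ZFP36L2 (ENST00000282388.4, chromosome 2, 43222402 to 43226606, minus strand) had 2.57 and 1.53 CPM at 0 h in shControl cells, 0.59 and 0.869 at 2 h, 0.276 and 0.218 at 4 h, 0.313 and 0.224 at 6 h, 0.571 and 0.547 at 10 h and 1.42 at 24 h. With shZNF598 it had 2.02 and 2.19 CPM at 0 h, 0.806 and 1.12 at 2 h, 0.367 and 0.149 at 4 h, 0.669 and 0.268 at 6 h, 0.736 and 0.898 at 10 h and 1.88 at 24 h. The lowest mean was at 4 h in both arms, and the shZNF598 libraries of 4 and 6 h were widely spread. By 2 h ZFP36L2 fell by 1.40 on the log2 scale in shControl cells (SE 0.22, edgeR with no minimum, adjusted p = 5.22e-08) and by 1.06 in shZNF598 cells (SE 0.22, edgeR with no minimum, adjusted p = 0.000103).

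**Figure D1:**
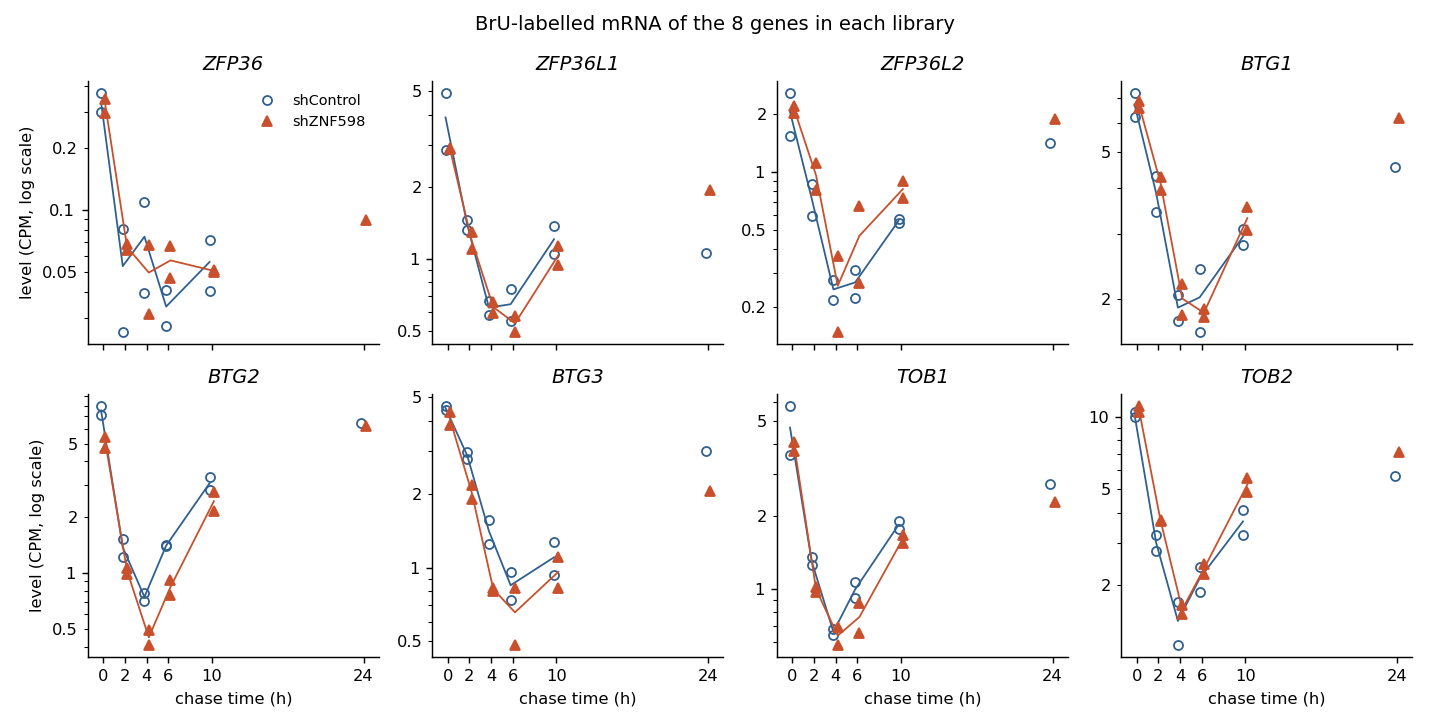
Level of the 8 mRNAs (CPM after TMM scaling, log scale, a separate range for each gene) against chase time in hours. Each point is 1 library (open circles shControl, filled triangles shZNF598), lines join the group means of 0-10 h, and a ZFP36 library with 0 counts at 24 h in shControl cells is not drawn. BTG2, TOB1 and TOB2 have their lowest mean at 4 h in both arms and stand higher again at 10 h.

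All 6 tested genes thus fell by 2 h in both arms, where 3.61% of all tested transcripts fell in shControl cells and 3.83% in shZNF598 cells. The median change of the 6 was -1.63 on the log2 scale in shControl cells and -1.41 in shZNF598 cells, and that of all tested transcripts was -0.025 and -0.024. ZFP36L1, BTG2, TOB1 and TOB2 kept the call whichever of the 20 libraries was left out. The loss by 2 h did not differ detectably between the arms for any of the 6 (edgeR, 0 with an adjusted or unadjusted p below 0.05, and 0 with DESeq2), nor for any transcript tested (0% of them). The difference between the arms ranged from -0.35 for BTG3 (95% interval -0.83 to 0.14) to 0.23 for TOB2 (95% interval -0.18 to 0.65), so that changes of up to about 0.8 on the log2 scale were within the error.

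Apparent half-lives were taken over the window with the best linear course. They use the same 0 and 2 h libraries, so their order is not independent of the fall by 2 h. For the 7 genes other than ZFP36 the window was 0-4 h in both arms. The exception was BTG3 in shControl cells, at 0-6 h. R² was above 0.9, but a window of 0-4 h holds only the group means of 0, 2 and 4 h. Relative to the bulk of the RNA, the half-life in shControl cells was 1.24 h for BTG2, 1.37 h for ZFP36L2, 1.46 h for TOB2, 1.48 h for TOB1, 1.6 h for ZFP36L1, 2.34 h for BTG1 and 2.57 h for BTG3. In shZNF598 cells it was 1.19 h for BTG2, 1.4 h for ZFP36L2, 1.52 h for TOB2, 1.62 h for TOB1, 1.84 h for BTG3, 1.95 h for ZFP36L1 and 2.5 h for BTG1. The ends of this order were held by BTG2 in both arms and by either BTG3 or BTG1. These values are descriptions with no error, and ZFP36 did not reach the R² limit in either arm (0.715 and 0.856). They are not absolute half-lives, because the spike-in RNAs were not used.

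After 4 h the recovered mRNAs of 5 of the 6 tested genes rose against the rest of the RNA. The contrast of 10 h against 4 h was chosen after the data had been seen. Counts do not tell RNA that carries BrU from unlabelled RNA recovered with it. Whether the rising reads came from labelled RNA was not tested. In shControl cells the change from 4 to 10 h was 2.04 on the log2 scale for BTG2 (SE 0.19, edgeR, adjusted p = 1.21e-09), 1.48 for TOB1 (SE 0.23), 1.38 for TOB2 (SE 0.18), 0.95 for ZFP36L1 (SE 0.26) and 0.64 for BTG1 (SE 0.18), the last with an adjusted p of 0.00301 (edgeR). In shZNF598 cells the change was 2.43 for BTG2 (SE 0.20, edgeR, adjusted p = 5.21e-10), 1.71 for TOB2 (SE 0.17), 1.33 for TOB1 (SE 0.23), 0.74 for ZFP36L1 (SE 0.27) and 0.71 for BTG1 (SE 0.17). BTG3, the exception, had -0.35 in shControl cells (SE 0.22, edgeR, adjusted p = 0.171) and 0.21 in shZNF598 cells (SE 0.24, edgeR, adjusted p = 0.474). Late rises were common, at 30.9% of all tested transcripts in shControl cells and 30.5% in shZNF598 cells, and at 51.4% and 55.5% of those that had fallen by 2 h. A fall by 2 h together with a rise after 4 h was seen in 1.86% and 2.13% of all. In the fit with no minimum ZFP36L2 also rose, by 1.13 on the log2 scale in shControl cells (SE 0.33) and by 1.51 in shZNF598 cells (SE 0.30), whereas ZFP36 had -0.41 (SE 0.82) and 0.02 (SE 0.90).

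The scale decided how many of these late rises were called. With libraries scaled by total counts alone, which moved the median of all tested transcripts from 4 to 10 h to -0.64 on the log2 scale in shControl and -0.54 in shZNF598 cells, the rise held for 3 genes in each arm (BTG2, TOB1 and TOB2), and the change of BTG3 in shZNF598 cells turned to -0.31. With that scaling a late change in either direction was called for 76.7% of all tested transcripts in shControl and 72.3% in shZNF598 cells. On that scale BTG3 in shControl cells had a called fall from 4 to 10 h (-0.92 on the log2 scale, edgeR, adjusted p = 0.000507). ZFP36L1 lost its call in shControl cells without replicate 1 of 10 h (0.75 on the log2 scale, edgeR, adjusted p = 0.0615), and in shZNF598 cells without replicate 1 of 4 h (0.65, edgeR, adjusted p = 0.106) or replicate 1 of 10 h (0.59, edgeR, adjusted p = 0.171). Between the arms the late change differed for 0 of the 6 genes (edgeR, 0 also at an unadjusted p below 0.05, and 0 with DESeq2), beside 0.0868% of all tested transcripts.

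**Figure D2:**
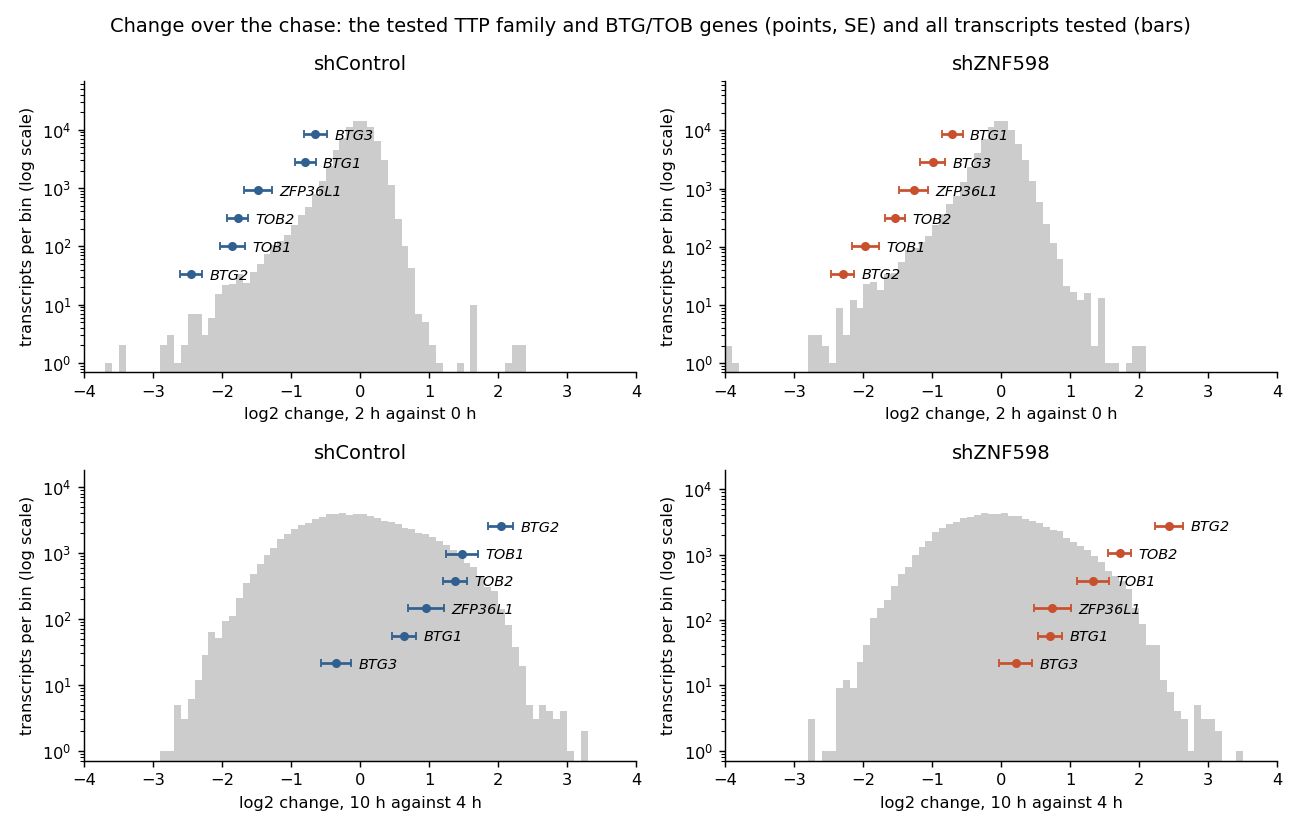
Log2 change of each tested gene (points with SE) over the distribution of all tested transcripts (grey bars, transcripts per 0.1 on a log axis) from 0 to 2 h in the upper panels and from 4 to 10 h in the lower ones, for shControl (left) and shZNF598 (right). Bar values beyond 4 in either direction were put in the outermost bar. BTG2 lies at -2.45 and -2.30 in the upper panels and at 2.04 and 2.43 in the lower ones.

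A straight line over 0-10 h described these V-shaped courses poorly. In the half-life regressions over 0-10 h, R² ran from 0.0126 for BTG2 in shZNF598 cells to 0.684 for BTG3 in shControl cells. The slopes that follow come from the edgeR model and have no R² of their own. Their SE and p-values hold the misfit of the line as well as the spread between libraries. The slope in shControl cells was below the bulk for BTG3 (-0.226 log2 per hour, SE 0.049, edgeR, adjusted p = 0.000338), ZFP36L1 (-0.171, SE 0.062, edgeR, adjusted p = 0.0167) and BTG1 (-0.119, SE 0.047, edgeR, adjusted p = 0.0262). It was -0.108 log2 per hour for BTG2 (SE 0.084), -0.121 for TOB1 (SE 0.070) and -0.132 for TOB2 (SE 0.069), with adjusted p values of 0.0889 to 0.246 (edgeR). The same 3 genes were called in shZNF598 cells, with -0.234 for BTG3 (SE 0.050), -0.156 for ZFP36L1 (SE 0.065) and -0.109 log2 per hour for BTG1 (SE 0.047), while BTG2, TOB1 and TOB2 had -0.090, -0.117 and -0.092. A share of 3 in 6 was close to the background, since 40.8% of all tested transcripts had a lower slope in shControl cells and 38.5% in shZNF598 cells. Over 0-4 h all 7 genes above the minimum in that window had a slope called below the bulk in both arms (edgeR), where 35.4% of 82856 transcripts in shControl cells and 35.2% in shZNF598 cells had a slope called in either direction.

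The slopes of the arms could not be told apart for any of the 6 genes. The errors of this comparison include the misfit of the line, so a difference within the wide intervals could not be shown. The difference, shZNF598 less shControl, ran from -0.007 log2 per hour for BTG3 (95% interval -0.144 to 0.129) to 0.040 for TOB2 (95% interval -0.147 to 0.227). None of the 6 had an adjusted or unadjusted p below 0.05 with edgeR, and none had an adjusted p below 0.05 with DESeq2, beside 0.116% of all tested transcripts with edgeR. The slope calls within each arm were sensitive to single libraries. Only BTG3 was called in shControl cells without replicate 1 of 0 h, and only BTG3 in shZNF598 cells without replicate 1 or 2 of 0 h or of 6 h. BTG1 was lost in addition without replicate 2 of 0 h in shControl cells and without replicate 1 of 2 h in shZNF598 cells, and TOB2 was gained in shControl cells without replicate 1 of 10 h (adjusted p = 0.0371, edgeR).

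Between the arms the levels differed for some of the BTG/TOB genes. Averaged over 0-10 h, BTG2 was lower in shZNF598 than in shControl cells by 0.56 on the log2 scale, 1.48-fold (log2 change -0.56, SE 0.08, edgeR, adjusted p = 2.62e-05), BTG3 was lower by 1.31-fold (-0.39, SE 0.10, edgeR, adjusted p = 0.00482), and TOB2 was higher by 1.17-fold (0.23, SE 0.07, edgeR, adjusted p = 0.0255). These 3 of 6 stand beside 22.4% of all tested transcripts called in this contrast. TOB1 had -0.25 (SE 0.10, edgeR, adjusted p = 0.0671), ZFP36L1 -0.23 (SE 0.11, edgeR, adjusted p = 0.146) and BTG1 0.03 (SE 0.08, edgeR, adjusted p = 0.794). ZFP36L2 was higher in shZNF598 cells in the fit with no minimum (0.37, SE 0.13, adjusted p = 0.0417, edgeR), and ZFP36 had 0.06 (SE 0.35). That fit called 11.6% of 183249 transcripts in this contrast. The ZFP36L2 libraries of the arms overlapped at 0, 2, 4 and 6 h, and those of shZNF598 were above at 10 h.

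BTG2 was the most uniform of these. Its shZNF598 libraries lay below its shControl libraries at all 5 times of 0-10 h, and the mean was 0.669 of that of shControl cells at 0 h, 0.746 at 2 h, 0.605 at 4 h, 0.598 at 6 h and 0.8 at 10 h. At 24 h the ratio was 0.963. For BTG3 the libraries were apart at 0, 2 and 4 h, with ratios of 0.903, 0.71 and 0.578, and overlapped at 6 and 10 h. TOB1 was lower without overlap at 2, 6 and 10 h, and TOB2 higher without overlap at 2 and 10 h, with 1.24 and 1.42 times the shControl mean. Groups of 2 libraries do not overlap for 37% of all tested transcripts at 0 h, 48.4% at 2 h, 47.8% at 4 h, 43.4% at 6 h and 44.6% at 10 h, and 6.57% were below shControl without overlap at 4 or more of the 5 times.

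Among the single time points only BTG2 at 6 h passed the threshold (-0.73 on the log2 scale, SE 0.20, edgeR, adjusted p = 0.0471), beside 2.29% of all tested transcripts. That call was absent with DESeq2 (adjusted p = 0.0517) and in 16 of the 20 fits without 1 library (edgeR, adjusted p up to 0.222), all but those without a shControl library of 0 h or a shZNF598 library of 10 h. With edgeR 0 of the 6 genes were called at 0, 2, 4 or 10 h, where 2, 2, 2 and 1 had an unadjusted p below 0.05, and 0 were called by DESeq2, beside 0.407%, 0.746%, 1.4% and 3.23% of all tested transcripts in edgeR. BTG2 at 0 h had -0.58 (SE 0.14, edgeR, adjusted p = 0.0711). BTG3 at 4 h had -0.78 (SE 0.21, edgeR, adjusted p = 0.0696) and was called in 4 fits, without either shControl library of 0 h or either shZNF598 library of 6 h. ZFP36L1 at 0 h was called without replicate 2 of shControl, the lower of its 2 values.

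The averaged calls of BTG2 and BTG3 were kept in each of the 20 fits without 1 library, with changes of -0.60 to -0.53 and -0.49 to -0.33 on the log2 scale. TOB2 lost its call in 7 of them, with changes of 0.18 to 0.22 (edgeR, adjusted p = 0.0516 to 0.0824), namely without shControl replicate 1 of 2 h or replicate 2 of 4, 6 or 10 h, or without shZNF598 replicate 1 of 0 or 4 h or replicate 2 of 6 h. Without shControl replicate 2 of 0 h both ZFP36L1 (-0.30, edgeR, adjusted p = 0.0213) and TOB1 (-0.31, edgeR, adjusted p = 0.00772) were called, which brought the count to 5, and TOB1 was also called without shZNF598 replicate 2 of 6 h.

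**Figure D3:**
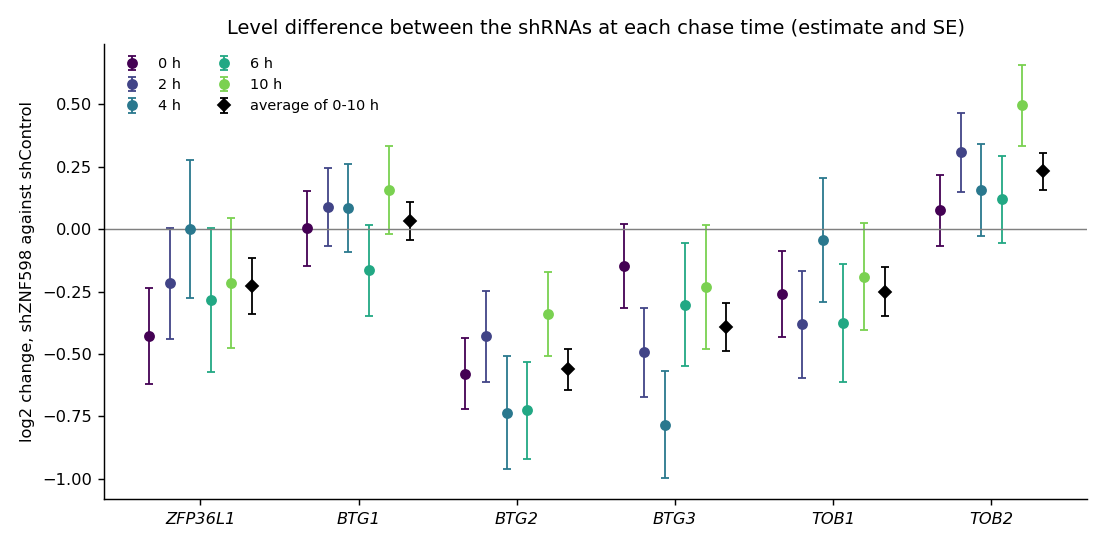
Log2 change of the level in shZNF598 against shControl cells (estimate and SE) for the 6 tested genes at each chase time (circles) and averaged over 0-10 h (black diamonds). All BTG2 estimates lie below 0, from -0.34 to -0.74, and all TOB2 estimates above it.

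The other genes of the pathway were read from 3 lists. In the CCR4-NOT, PAN2-PAN3 and poly(A)-binding list of 17 genes, all tested, CNOT4 alone fell by 2 h in either arm, by 0.89 on the log2 scale in shControl cells (SE 0.19, edgeR, adjusted p = 0.00406) and by 0.71 in shZNF598 cells (SE 0.19, edgeR, adjusted p = 0.0249), and the list's median was -0.007 and 0.019. Across all tested transcripts 3.61% and 3.83% had fallen by 2 h in the respective arms. From 4 to 10 h most of the list's called genes fell, with 10 of 17 lower and 2 higher in shControl cells and 11 lower and 2 higher in shZNF598 cells. CNOT11, CNOT8 and CNOT9 fell by 1.24, 1.14 and 1.10 on the log2 scale in shControl cells, while PABPC1, the cytoplasmic poly(A)-binding protein, rose by 1.16. Lower values were called in 34% and 31% of all tested transcripts in this interval, and higher ones in 30.9% and 30.5%.

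Other RNA-binding proteins of short-lived mRNAs had early calls near the share of all tested transcripts, which was 3.61% in shControl and 3.83% in shZNF598 cells. Of 16 such genes 15 were tested, and by 2 h 0 fell in shControl cells and 1 fell in shZNF598 cells (RC3H1, by 0.45 on the log2 scale, SE 0.12, edgeR, adjusted p = 0.032). From 4 to 10 h 6 were lower and 2 higher in shControl cells, and 5 lower and 2 higher in shZNF598 cells. Of all tested transcripts 34% and 31% were called lower in the respective arms, and 30.9% and 30.5% higher. TIA1, which also binds U-rich sequence, fell by 1.28 on the log2 scale in shControl cells (SE 0.13), and YBX1 rose by 1.57 (SE 0.10).

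In a list of 20 mRNAs known for AU-rich elements the calls lay on the same side as those of the TTP and BTG/TOB genes at both intervals, with 1 exception. Of its 13 tested genes 9 fell by 2 h in shControl cells and 7 in shZNF598 cells, with medians of -0.74 and -0.57 on the log2 scale. By then 3.61% and 3.83% of all tested transcripts had fallen. DUSP1, a MAP kinase phosphatase, fell by 2.36 on the log2 scale in shControl cells (SE 0.18, edgeR, adjusted p = 4.03e-09), MYC changed by -2.02 (SE 0.16) and JUN by -2.01 (SE 0.13), values between those of TOB1 and BTG2. From 4 to 10 h 7 of the 13 rose in shControl cells and 8 in shZNF598 cells. Rises were called in 30.9% and 30.5% of all tested transcripts, and in 51.4% and 55.5% of those that had fallen by 2 h. In shControl cells MYC rose by 2.22 on the log2 scale (SE 0.19) and IER2 by 1.83 (SE 0.21). HIF1A, the exception, fell by 0.70 (SE 0.12). Averaged over 0-10 h, CDKN1A was lower in shZNF598 cells by 0.97 on the log2 scale (SE 0.08, edgeR, adjusted p = 9.19e-10) and DUSP1 by 0.81 (SE 0.10, edgeR, adjusted p = 1.77e-06). CDKN1A encodes the cell cycle inhibitor p21. Of the list, HIF1A was also lower, and VEGFA, MYC and MCL1 were higher by at most 0.26. Thus 3 of the 13 were lower and 3 higher, beside 22.4% of all tested transcripts called in either direction.

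**Figure D4:**
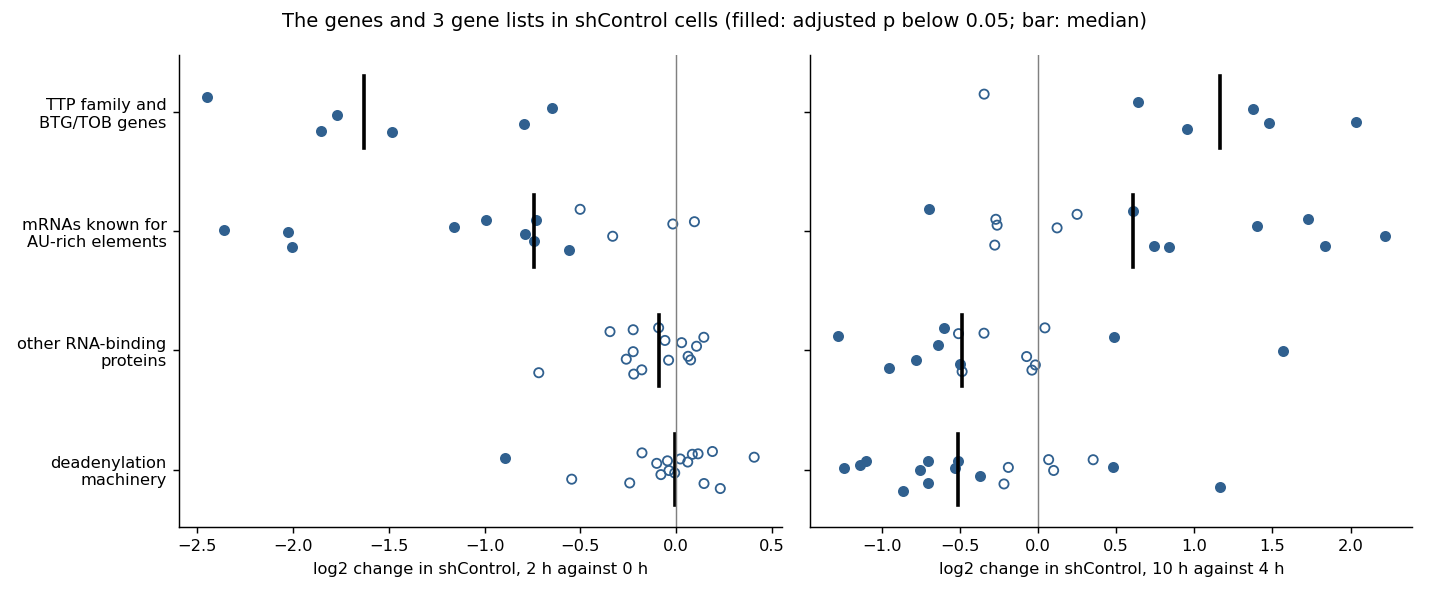
Log2 change in shControl cells from 0 to 2 h (left) and from 4 to 10 h (right) for the tested TTP and BTG/TOB genes and 3 gene lists. Each point is a gene (filled with an adjusted p below 0.05, open otherwise, spread vertically at random) and black bars are medians, which by 2 h are -1.63 for the TTP and BTG/TOB genes, -0.74 for mRNAs with AU-rich elements and -0.007 for the deadenylation machinery.

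Among the 14993 other genes tested, 1 transcript each, the courses most like the median course of the 6 were those of HOXB3, PABPC4L and ZNF134, by the root mean square difference of centred log2 CPM over 20 libraries (0.138, 0.168 and 0.179). In the same measure ZFP36L1 was 0.169 from the median course and TOB1 0.226, while BTG2 at 0.508 and BTG3 at 0.51 were the farthest of the 6. Of the other genes, 2 were closer to the median course than ZFP36L1, 10 than TOB1, 53 than TOB2 and 75 than BTG1. As many as 936 were closer than BTG2 and 946 than BTG3. The 6 genes themselves make up that median. HOXB3 had 4.96 ± 0.29 CPM at 0 h in shControl cells, 0.928 ± 0.16 at 4 h and 2 ± 0.17 at 10 h (SD, n = 2).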

How the data were processed

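Per the labels and the study's methods, the authors trimmed reads with fastp, removed reads of noncoding RNA, aligned the rest with STAR 2.7.0a to hg38 with GENCODE release 32 annotation (1 mismatch, 1 locus) and assigned them to transcripts with featureCounts. Each deposited file holds the raw counts of 1 library, per transcript, beside the transcript length in codons. A read counts in every isoform it overlaps, so isoform rows share reads.

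Counts were analysed with edgeR 4.0.16 in R 4.3.3. The filter required an average of 1 CPM in the 20 libraries of 0-10 h, which 79513 of 227264 transcripts met. Libraries were scaled by TMM, and CPM are per 1000000 counts of these transcripts. TMM sets the bulk of every library to the same level, so all changes are relative to it. A model with 1 mean per group gave levels and changes, and a model of shRNA, chase hours and their product gave slopes. Both used edgeR's quasi-likelihood test, with p-values adjusted by Benjamini-Hochberg over all tested transcripts (threshold 0.05). SE were derived from the log2 change and its F statistic, and 95% intervals are 1.96 SE to either side. Half-lives regressed DESeq2 1.42.0 log2 fold changes against 0 h on hours over 0-4, 0-6, 0-10 and 0-24 h, keeping the window with the highest R² (minimum 0.9). The functions were tested on simulated data. Identifiers were named with GENCODE release 44 (98.4% matched without version).

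The genes named were the 8 genes, ZNF598, up to 3 called genes per direction with the largest change in each list, and the 3 genes most like the median course, besides SALL1, PAX2, PTPRC, ALB and COL1A1 as markers of cell types. The 8 genes, the lists and the tests were chosen with earlier results of these data known. Alternatives covered scaling, the filter, the test, the replicate block, left-out libraries and chase windows. No protein sequence was analysed here. The matches to a further motif are not reported here.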

Additional observations from a re-analysis of the deposited data

How the results depend on the processing

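Of 1745 values recomputed under alternatives, 1588 kept their direction and their side of the threshold, or stayed within the allowed range for a count. For a change by 2 h or after 4 h in 1 arm, most fits without 1 library leave out a library that the change does not use. Such fits act on its p-value through the shared spread and hardly on its estimate, so the total overstates how much was tested. With DESeq2's Wald test and under the replicate block all 6 genes still fell by 2 h in both arms, and in the fits without 1 library 4 to 6 fell in shControl cells and 5 to 6 in shZNF598 cells. A change by 2 h in either direction was called for 4.1% and 4.44% of all tested transcripts with DESeq2 (shControl and shZNF598). Under the block it was called for 4.41% and 5.14%. The number with a slope below the bulk, 3 in each arm, became 6 in shControl and 5 in shZNF598 cells with total counts, 5 in shControl cells with no minimum, 1 in both arms with DESeq2's Wald test, 1 in shZNF598 cells with DESeq2 size factors, 7 of 7 over 0-4 h, 6 of 6 over 0-6 h, 0 over 0-24 h, 1 without the 0 h libraries and 1 with only replicate 1 or 2 of every group, and ranged from 1 to 4 and from 1 to 3 in the fits without 1 library. Of all transcripts, 74.4% in shControl and 71.2% in shZNF598 cells had a slope called in either direction in the main fit. The shares were 78.8% and 76.1% with total counts and 73.3% and 70.4% with DESeq2's Wald test. With no minimum it was 42.4% in shControl cells, and with DESeq2 size factors 70.5% in shZNF598 cells. Over 0-6 h the shares were 67% and 64.6%, and over 0-24 h 29.2% and 26.5%. Without the 0 h libraries the slope turned to 0.170 and 0.190 log2 per hour for BTG2, 0.084 and 0.101 for TOB1 and 0.058 and 0.084 for TOB2 (shControl and shZNF598). Over 0-24 h it turned to 0.012 and 0.037 for BTG2 and to 0.001 for BTG1 in shZNF598 cells. These windows leave out the fall or add a late rise, which the values by library show. Rises from 4 to 10 h were called for 3 genes in each arm with total counts and for 4 to 5 without 1 library, and with total counts BTG3 turned to -0.312 in shZNF598 cells and had a called fall in shControl cells (-0.923, edgeR, adjusted p = 0.000507). Late changes in either direction were called for 76.7% and 72.3% of all tested transcripts with total counts (shControl and shZNF598). Level differences were called for 1 gene at 0 h (BTG2) and 1 at 4 h (BTG3) with total counts, 1 at 4 h with no minimum (BTG3), and 0 at 6 h with no minimum or DESeq2, and the fits without 1 library called 0 to 1 at 0, 4 and 6 h and 2 to 5 on average over 0-10 h. Of all transcripts tested with total counts, 0.541% were called at 0 h and 1.7% at 4 h. With no minimum 1.01% were called at 4 h and 1.25% at 6 h, and with DESeq2 2.65% at 6 h. The averaged change of BTG1, 0.03 on the log2 scale, was -0.012 without shControl replicate 2 of 6 h. The median apparent half-life over all 8 genes in both arms, ZFP36 included, was 1.58 h and became 9.87 h over a fixed window of 0-10 h. The correlation of replicate differences between 45 pairs of groups ran from -0.327 to 0.475, with a median of 0.029, and was over 0.1 in 12. These values do not show a pairing by replicate number over all groups, and a pairing within some groups cannot be told from them. The replicate block left 3 genes with a slope below the bulk in each arm and changed no call. Depth limits ZFP36 most, at 8 counts or fewer in any library after 0 h, and the 24 h libraries have no replicate.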

Other observations

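The genes have other transcripts in the counts, and 3 of these rows passed the minimum. ZFP36L1 ENST00000555997.1 fell by 1.47 on the log2 scale by 2 h in shControl cells (SE 0.20, edgeR, adjusted p = 2.58e-05) and rose by 0.98 from 4 to 10 h (SE 0.26). TOB1 ENST00000268957.3 fell by 1.76 by 2 h (SE 0.21, edgeR, adjusted p = 4.95e-06) and rose by 1.72 after 4 h (SE 0.26), and BTG3 ENST00000339775.10 fell by 0.65 by 2 h (SE 0.17, edgeR, adjusted p = 0.0311) and had -0.26 after 4 h (SE 0.22). Averaged over 0-10 h, the second TOB1 row was lower in shZNF598 cells (-0.33 on the log2 scale, SE 0.11, edgeR, adjusted p = 0.0383), where the first row missed the threshold, and the second BTG3 row was lower too (-0.39, SE 0.10, edgeR, adjusted p = 0.00613). A read counts in each isoform that it overlaps, so these rows are not independent of the ones described above.

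At 24 h there was 1 library per shRNA and no test. The recovered RNA of BTG2 stood at 85.4% of its 0 h mean in shControl cells and at 123% in shZNF598 cells. BTG1 stood at 67.6% and 91.6%, and ZFP36L2 at 69% and 89.1%. ZFP36L1 stood at 27.3% and 67.1%, from only 18 and 65 counts. ZFP36, with 0 and 3 counts, was too scarce to compare. TOB2 had 55.4% and 66.5%, while TOB1 was almost level at 57.9% and 58.6%. BTG3 went the other way, with 66.8% for shControl and 50.5% for shZNF598. These shares are relative to the bulk of the RNA that was left in each library.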
